A study of Mus musculus with 18 samples.

Results

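The enzymes described here make cholesterol, and 8 genes stand for the pathway, Hmgcs1, Mvd, Idi1, Fdps, Fdft1, Sqle, Cyp51 and Dhcr7. They were taken by gene symbol for the steps they catalyse, from the mevalonate steps to the end of the sterol steps. The choice was made with earlier results of these data known. The genes are 8 of the 54752 genes in the RNA tables and of the 22523 genes in the footprint tables. The study asked what loss of GTPBP1 or of GTPBP2, related GTPases that help to clear stalled ribosomes, does in the cerebellum of 3-week-old mice of both sexes. Control mice were C57BL/6J (B6J). The B6J.Gtpbp1-/- mice have a targeted allele of Gtpbp1 on that background, which lacks exon 4. The B6J-Gtpbp2-/- mice carry the nmf205 point mutation in Gtpbp2, which was induced with ENU. All 3 genotypes, controls included, share the B6J mutation in n-Tr20, a brain tRNA for the arginine codon AGA, so no group here has a normal n-Tr20. Each genotype has 3 mice by RNA-seq and 3 by ribosome profiling, which reads the mRNA fragments shielded by ribosomes (footprints).

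Cholesterol cannot cross from blood into brain in useful amounts, so brain cells make their own, and demand is high while myelin is laid down in the first weeks of life. Acetyl units are joined to mevalonate, mevalonate is turned into isoprenoid units, these are joined to squalene, and squalene is closed into lanosterol and trimmed to cholesterol. The transcription factor SREBP2, encoded by Srebf2, turns on most genes of the pathway when sterol in the endoplasmic reticulum is low, whereas liver X receptors turn on sterol export genes such as Abca1 when oxysterols are high.

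RNA libraries held 49090286, 50301156 and 52114145 counts in B6J, 44242824, 49293902 and 37794333 in B6J.Gtpbp1-/- and 46026737, 50878561 and 51979454 in B6J-Gtpbp2-/-. Footprint libraries were shallower, with 4428395, 4489970 and 6523974 counts in B6J, 7054063, 8612441 and 5944024 in B6J.Gtpbp1-/- and 6281637, 3630823 and 10442573 in B6J-Gtpbp2-/-. Counts of the Y-linked gene Ddx3y in RNA were 0, 4663 and 26 in B6J, 5455, 6574 and 21 in B6J.Gtpbp1-/- and 21, 13 and 12 in B6J-Gtpbp2-/-. Counts of the X-linked gene Xist in RNA were 55639, 120 and 58215 in B6J and 150, 60 and 49033 in B6J.Gtpbp1-/-. In B6J-Gtpbp2-/- they were 55288, 60525 and 76745. In RNA the sexes were therefore mixed in B6J and B6J.Gtpbp1-/-, while all B6J-Gtpbp2-/- libraries read as female. Footprint counts of Ddx3y were 379, 330 and 3 in B6J, 835, 25 and 4 in B6J.Gtpbp1-/- and 16, 4 and 11 in B6J-Gtpbp2-/-.

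The targeted genes were looked at first, in CPM, the counts of a gene scaled to a common library size with the trimmed mean of M values. RNA of Gtpbp1 was 70.9, 77.8 and 66.7 CPM in B6J, 44.0, 41.7 and 43.9 CPM in B6J.Gtpbp1-/- and 58.6, 72.1 and 65.7 CPM in B6J-Gtpbp2-/-. All B6J.Gtpbp1-/- libraries lay below all others in CPM, as their label says. In TPM, at 43.5, 38.4 and 40.4 in B6J and 34.5, 35.1 and 41.1 in B6J.Gtpbp1-/-, replicate 3 of the mutant overlapped with B6J. In TPM of protein-coding transcripts alone, at 35.7, 37.1 and 36.8 in B6J and 23.7, 25.4 and 27.9 in B6J.Gtpbp1-/-, it did not. Genes were called at an adjusted p of at most 0.05 from edgeR's quasi-likelihood test, adjusted over all genes tested as Benjamini and Hochberg described. So read, Gtpbp1 fell by 0.73 on the log2 scale in B6J.Gtpbp1-/- (adjusted p = 5.94e-05). With an offset for transcript length that value was -0.31 (edgeR, adjusted p = 0.0819, over alternatives from 2.76e-13 to 0.0819). Its footprints on coding sequence were 73.6, 117 and 84.8 CPM in B6J, 32.0, 25.5 and 35.6 CPM in B6J.Gtpbp1-/- and 79.3, 66.8 and 62.1 CPM in B6J-Gtpbp2-/-. They again set the B6J.Gtpbp1-/- libraries apart.

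Gtpbp2 RNA was 85.9, 74.0 and 88.1 CPM in B6J, 109, 100.5 and 104 CPM in B6J.Gtpbp1-/- and 65.5, 75.4 and 72.7 CPM in B6J-Gtpbp2-/-. Since nmf205 is a point mutation, the transcript is still counted, and B6J and B6J-Gtpbp2-/- overlapped in CPM. In TPM B6J-Gtpbp2-/-, at 127, 145 and 151, lay above B6J, at 114, 91.7 and 99.0. From protein-coding transcripts alone they overlapped, with 28.3, 38.2 and 41.7 TPM beside 38.8, 37.0 and 41.4 TPM in B6J. RNA does not check that label. Footprints of Gtpbp2 were 44.7, 36.1 and 38.4 CPM in B6J, 36.2, 43.3 and 58.3 CPM in B6J.Gtpbp1-/- and 28.9, 26.4 and 7.54 CPM in B6J-Gtpbp2-/-. The 3 B6J-Gtpbp2-/- libraries were the lowest, with a log2 change of -0.97 against B6J that did not pass (edgeR, adjusted p = 0.321).

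Levels of different enzymes are compared per length, in TPM, which divides by transcript length and scales all libraries to the same total. In B6J, Hmgcs1 led with 267 ± 20.4 TPM (SD, n = 3), above 98.1% of the 24577 genes tested. Idi1 had 89.1 ± 5.72 TPM (SD, n = 3) and Fdps 82.4 ± 1.42 TPM (SD, n = 3), and their libraries overlapped. Cyp51 followed with 61.8 ± 0.827 TPM and Sqle with 58.8 ± 4.23 TPM (SD, n = 3 each), which overlapped too. Dhcr7 with 29.6 ± 3.27 TPM and Fdft1 with 29.4 ± 3.15 TPM (SD, n = 3 each) could not be ranked. Mvd was lowest with 22.4 ± 1.08 TPM (SD, n = 3), still above 70.1% of genes, whose median was 5.53 TPM. In TPM of protein-coding transcripts alone, Dhcr7 with 25.1 ± 2.73 TPM (SD, n = 3) overlapped with Mvd, so the lowest place was not separate. Cyp51 and Sqle did not overlap on that scale. Summed over the 8 enzymes, RNA came to 649, 619 and 652 TPM in B6J, 351, 427 and 356 TPM in B6J.Gtpbp1-/- and 423, 445 and 537 TPM in B6J-Gtpbp2-/-. Every mutant library had a lower sum than every B6J library.

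Below Hmgcs1, 3 pairs of neighbours in the order overlapped in each genotype. Fdps, Sqle, Idi1 and Cyp51 overlapped with their neighbours in B6J.Gtpbp1-/-, where they had 48.0, 47.0, 43.3 and 36.0 TPM, and Hmgcs1 had 143 ± 22.7 TPM (SD, n = 3). In B6J-Gtpbp2-/- Hmgcs1 had 191 ± 28.0 TPM (SD, n = 3), and Fdps, Idi1 and Sqle overlapped at 62.2, 53.5 and 52.9 TPM. Fdft1 and Dhcr7 overlapped there too, but not in B6J.Gtpbp1-/-.

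In the mean of each genotype a single transcript carried most of the RNA of each gene. In B6J its share of the gene's TPM ran from 63.7% for Dhcr7 through 79.5% for Hmgcs1 and 81.6% for Fdft1 to 99.1% for Cyp51 and 100% for Mvd. In Dhcr7 the leading transcript held 59.6% in B6J.Gtpbp1-/- and 60.4% in B6J-Gtpbp2-/-, with 46.9% in the lowest B6J-Gtpbp2-/- library.

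On GRCm38, in the GENCODE M21 annotation, the genes lie on 7 chromosomes. Hmgcs1 is at chr13:119690379-119708260 and Idi1 at chr13:8885501-8892451, both on the + strand. Mvd is at chr8:122433601-122443422, Fdps at chr3:89093588-89101959, Fdft1 at chr14:63145150-63179578 and Cyp51 at chr5:4081145-4104746, all on the − strand. Sqle is at chr15:59315077-59331192 and Dhcr7 at chr7:143823145-143848410, on the + strand. Of the windows of 30 bases in each coding sequence, 86.1% recur elsewhere in the genome for Idi1, 90.3% for Fdps and 50.6% for Fdft1, against 0 windows for the other 5 genes. Short footprints of Idi1, Fdps and Fdft1 can therefore match copies elsewhere, how the counting treated such reads is not given in the sources used here, and the values of these 3 genes are uncertain, above all in footprints.

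All 8 enzymes had less RNA in both mutants than in B6J, and in CPM all 3 libraries of the mutant lay below all 3 of B6J in each case. In TPM the same held in B6J.Gtpbp1-/-, whereas B6J-Gtpbp2-/- overlapped with B6J for Fdft1, Sqle and Dhcr7. The decrease was deepest in B6J.Gtpbp1-/- for Idi1, Hmgcs1, Cyp51 and Fdps, which lost about as much RNA as they kept, and shallowest for Fdft1 and Sqle. B6J-Gtpbp2-/- values mostly lay between the other genotypes. Both mutants were compared with the same 3 B6J libraries, so their results are not independent of each other. In bulk cerebellum, fewer cells of a type and less RNA per cell cannot be told apart.

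Hmgcs1, which condenses acetyl units to HMG-CoA, had 416, 372 and 409 CPM in B6J, 175, 229 and 178 CPM in B6J.Gtpbp1-/- and 226, 241 and 305 CPM in B6J-Gtpbp2-/-. No mutant library came near the lowest B6J value, and the mutants overlapped at 229 and 226 CPM. It fell by 1.04 on the log2 scale (SE 0.106), a decrease of 51.3%, in B6J.Gtpbp1-/- (edgeR, Benjamini-Hochberg adjusted p = 3.03e-05). In B6J-Gtpbp2-/- it fell by 0.63 (SE 0.112; edgeR adjusted p = 0.00573).

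Mvd makes isopentenyl diphosphate by decarboxylation and closes the mevalonate steps. Its RNA was 25.5, 23.8 and 23.6 CPM in B6J, 16.3, 14.9 and 14.7 CPM in B6J.Gtpbp1-/- and 15.3, 17.3 and 17.3 CPM in B6J-Gtpbp2-/-. Replicates were tight, the mutants overlapped, and both stood clear of B6J. The log2 change was -0.67 (SE 0.104; edgeR adjusted p = 0.000846) in B6J.Gtpbp1-/- and -0.55 (SE 0.109; edgeR adjusted p = 0.0106) in B6J-Gtpbp2-/-. The latter call was lost without B6J replicate 1 (adjusted p = 0.0543, over alternatives of edgeR and DESeq2 from 8.6e-05 to 0.0543).

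Idi1 converts isopentenyl diphosphate to its more reactive isomer. It was measured at 109, 118 and 120.5 CPM in B6J, 45.3, 57.8 and 46.9 CPM in B6J.Gtpbp1-/- and 52.8, 60.0 and 74.7 CPM in B6J-Gtpbp2-/-. Of the 8 genes it had the lowest log2 change in both mutants, -1.21 (SE 0.0940; edgeR adjusted p = 2.94e-06) in B6J.Gtpbp1-/- and -0.89 (SE 0.113; edgeR adjusted p = 0.000788) in B6J-Gtpbp2-/-. B6J-Gtpbp2-/- replicate 3 was the highest of the mutant libraries.

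Fdps builds farnesyl diphosphate, the branch point to sterols, ubiquinone and protein prenylation. The libraries had 48.6, 51.3 and 49.1 CPM in B6J, 25.2, 27.6 and 23.7 CPM in B6J.Gtpbp1-/- and 32.6, 29.8 and 37.0 CPM in B6J-Gtpbp2-/-. The 3 genotypes did not overlap at all, with B6J.Gtpbp1-/- lowest. Changes on the log2 scale were -0.96 (SE 0.0894; edgeR adjusted p = 1.4e-05) in B6J.Gtpbp1-/- and -0.58 (SE 0.0945; edgeR adjusted p = 0.00347) in B6J-Gtpbp2-/-.

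Fdft1, squalene synthase, takes the step that commits farnesyl diphosphate to sterols. It had 49.2, 53.2 and 45.5 CPM in B6J, 33.1, 37.8 and 34.0 CPM in B6J.Gtpbp1-/- and 34.3, 37.5 and 42.9 CPM in B6J-Gtpbp2-/-. B6J-Gtpbp2-/- replicate 3 came close to the lowest B6J library. The decrease passed in B6J.Gtpbp1-/-, at -0.49 (SE 0.0914; edgeR adjusted p = 0.0028), and only just in B6J-Gtpbp2-/-, at -0.37 (SE 0.101; edgeR adjusted p = 0.0465). In B6J-Gtpbp2-/- the adjusted p for Fdft1 went from 0.0131 to 0.174 over alternatives. It missed the threshold with upper quartile scaling (0.0737), a length offset (0.157), a replicate block (0.0591), a term for Ddx3y (0.0792), and without B6J-Gtpbp2-/- replicate 1 (0.0958), B6J-Gtpbp2-/- replicate 2 (0.128), B6J replicate 1 (0.137) or B6J replicate 2 (0.174).

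Sqle adds the oxygen that lets squalene close into rings. Its libraries held 88.2, 79.9 and 91.4 CPM in B6J, 59.9, 68.0 and 58.8 CPM in B6J.Gtpbp1-/- and 64.9, 68.0 and 78.0 CPM in B6J-Gtpbp2-/-. Only a narrow gap parted B6J-Gtpbp2-/- replicate 3, at 78.0 CPM, from B6J replicate 2, at 79.9 CPM. Sqle fell by 0.48 (SE 0.0849; edgeR adjusted p = 0.00222) in B6J.Gtpbp1-/-. For B6J-Gtpbp2-/- the log2 change of -0.30 (SE 0.0911) did not pass (edgeR adjusted p = 0.0664). It did pass by DESeq2 (0.0297), with no filter on low counts (0.0285), with all 9 RNA libraries in the model (0.049) and with a replicate block (0.0443). The range over alternatives was from 0.0285 to 0.203.

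Cyp51 removes a methyl group from lanosterol, the first sterol. RNA was tight in B6J, with 121, 124 and 126 CPM, against 54.2, 74.0 and 61.6 CPM in B6J.Gtpbp1-/- and 66.0, 73.5 and 84.6 CPM in B6J-Gtpbp2-/-. The mutants overlapped with each other and lay far below B6J. Cyp51 fell by 0.97 (SE 0.0991; edgeR adjusted p = 3.04e-05) in B6J.Gtpbp1-/- and by 0.73 in B6J-Gtpbp2-/- (SE 0.0918; edgeR adjusted p = 0.000787).

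Dhcr7 reduces the last double bond on the way to cholesterol. The values were 37.3, 37.0 and 32.2 CPM in B6J, 21.9, 23.8 and 19.7 CPM in B6J.Gtpbp1-/- and 23.6, 24.0 and 28.3 CPM in B6J-Gtpbp2-/-. B6J replicate 3 was the lowest control and still above every mutant library. Log2 changes were -0.70 (SE 0.105; edgeR adjusted p = 0.000612) in B6J.Gtpbp1-/- and -0.49 (SE 0.107; edgeR adjusted p = 0.0164) in B6J-Gtpbp2-/-. For Dhcr7 in B6J-Gtpbp2-/- the call was lost with a length offset (0.0619) and without B6J-Gtpbp2-/- replicate 2 (0.0632), B6J replicate 1 (0.0816) or B6J replicate 2 (0.0787), within a range from 0.000765 to 0.0816.

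**Figure D1:**
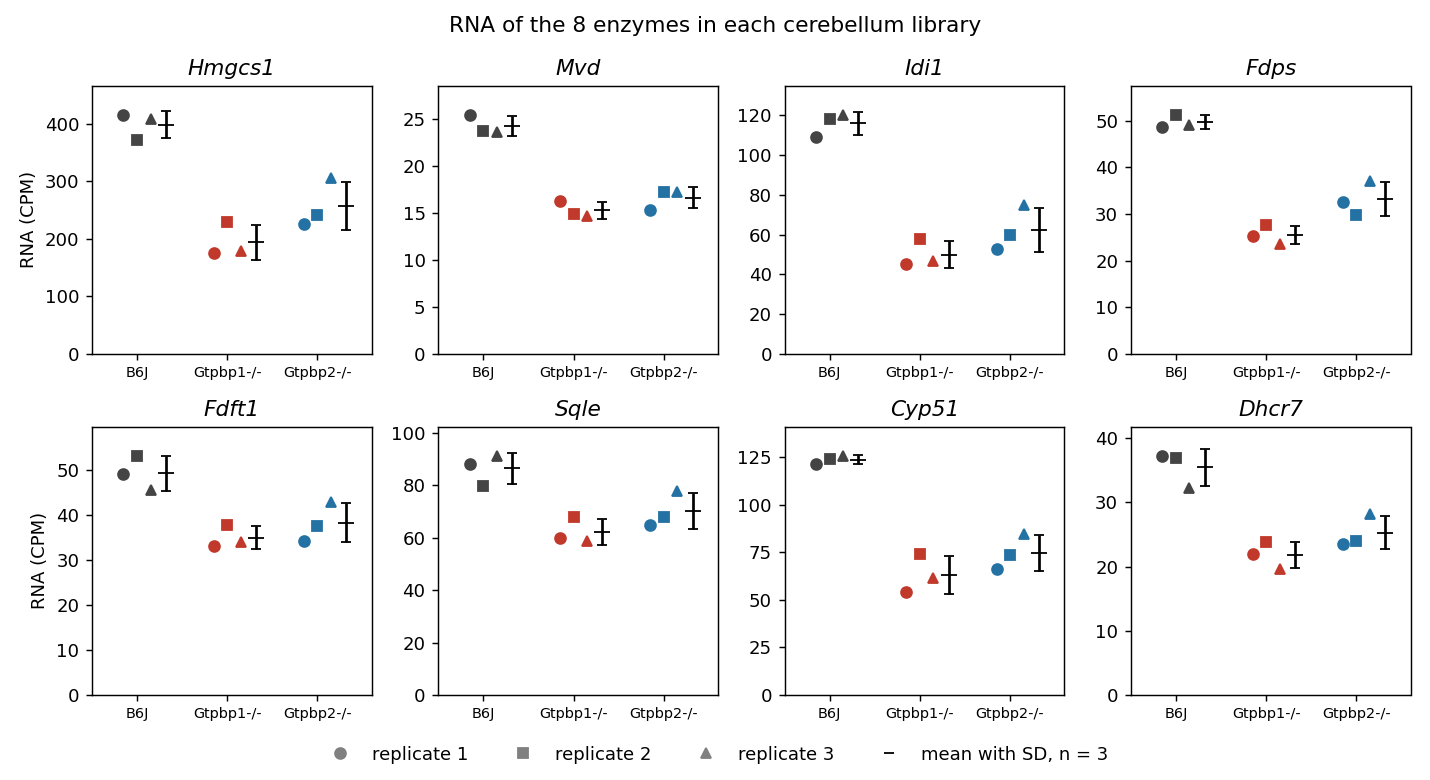
RNA of the 8 enzymes in CPM, a panel for each, with a marker for every library (circle, square and triangle for replicates 1, 2 and 3) by genotype and the mean with SD (n = 3) in black. In all 8 panels every mutant library lies below every B6J library, as for Hmgcs1, where the lowest control is at 372 CPM and the highest mutant library at 305 CPM.

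In B6J.Gtpbp1-/-, 8 of the 8 enzymes were called, all lower. Among all 24577 genes tested, 13.8% were called and 7.93% were called lower. Since the 8 were chosen with earlier results of these data known, such shares, here and below, describe them and test nothing. In CPM all libraries of the mutant lay below all of B6J for 8 of 8 enzymes and for 15.9% of all genes. The median log2 change of the enzymes was -0.83, beside 0.03 over all genes. All 8 kept their calls in each alternative run, single libraries left out included, and the least favourable adjusted p among these was 0.0324, for Fdft1.

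In B6J-Gtpbp2-/-, 7 of the 8 enzymes were called, all lower, against 8.63% of 24859 genes called and 5.02% called lower. Again 8 of 8 had all mutant libraries below all of B6J in CPM, as had 14.1% of all genes, but in TPM Fdft1, Sqle and Dhcr7 overlapped with B6J. The enzymes' median log2 change was -0.57, beside 0.03 over all genes. Without B6J replicate 1 the number of enzymes called was 4.

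The mutants were then set against each other directly, since a difference between them does not follow from separate comparisons with B6J. All 8 enzymes had lower RNA in B6J.Gtpbp1-/- than in B6J-Gtpbp2-/- on average, with a median log2 difference of -0.23 beside -0.00 over all genes. None passed: edgeR called 0 of 8 enzymes, against 0.0595% of 25190 genes, DESeq2 called 0, and 3 enzymes and 899 of all genes had an unadjusted p under 0.05. The enzymes were Fdps at -0.38 (unadjusted p = 0.00397), Hmgcs1 at -0.41 (unadjusted p = 0.0122) and Idi1 at -0.32 (unadjusted p = 0.0361), each with an edgeR adjusted p of 1.

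**Figure D2:**
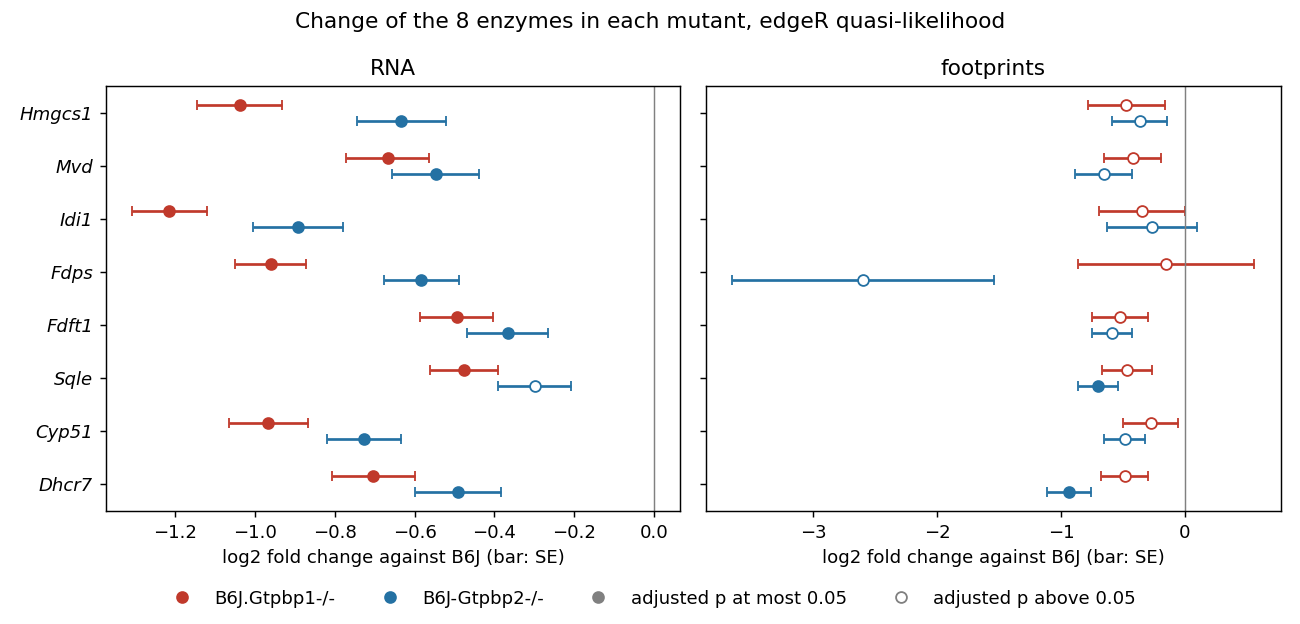
Log2 fold change of the 8 enzymes against B6J in RNA (left) and in footprints (right), with B6J.Gtpbp1-/- in red, B6J-Gtpbp2-/- in blue, bars of 1 SE and filled points for an adjusted p of at most 0.05. In RNA all points lie below 0, from -1.21 for Idi1 in B6J.Gtpbp1-/- to -0.30 for Sqle in B6J-Gtpbp2-/-, and in footprints only Sqle and Dhcr7 in B6J-Gtpbp2-/- are filled.

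Beyond the 8 enzymes, RNA of 14 other enzymes of the pathway was lower for 10 in B6J.Gtpbp1-/- and for 3 in B6J-Gtpbp2-/-, by edgeR, and higher for none, where 7.93% and 5.02% of all genes were lower. Medians of the log2 change were -0.44 and -0.30, beside 0.03 over all genes in each comparison. Ebp, a sterol isomerase, had 34.7, 32.5 and 35.4 CPM in B6J, 16.6, 18.9 and 19.2 CPM in B6J.Gtpbp1-/- and 19.4, 19.5 and 23.1 CPM in B6J-Gtpbp2-/-. Its changes were -0.91 (edgeR adjusted p = 5.8e-05) and -0.73 (edgeR adjusted p = 0.00174).

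Sc5d, a sterol desaturase, was called in both mutants too. It had 127, 138 and 129 CPM in B6J, 80.1, 97.3 and 100.4 CPM in B6J.Gtpbp1-/- and 91.4, 96.2 and 113 CPM in B6J-Gtpbp2-/-. The changes were -0.51 (edgeR adjusted p = 0.00195) and -0.40 (edgeR adjusted p = 0.018). In B6J-Gtpbp2-/- the call for Sc5d was lost without B6J-Gtpbp2-/- replicate 2 (0.0671), B6J replicate 1 (0.0681) or B6J replicate 2 (0.0886), over a range from 0.00119 to 0.0886.

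Also called in B6J.Gtpbp1-/- were Msmo1 (-0.64), Nsdhl (-0.65), Mvk (-0.58), Acat2 (-0.56), Hsd17b7 (-0.38) and Pmvk (-0.34), and Ggps1, Lss, Lbr and Tm7sf2 were called in neither mutant. By edgeR, Mvk was lost without B6J.Gtpbp1-/- replicate 2 (adjusted p = 0.0559), Nsdhl without B6J replicate 2 (adjusted p = 0.0518), Hsd17b7 with a length offset (0.098), with a replicate block (0.0501) and without B6J.Gtpbp1-/- replicate 1 (0.0622), replicate 2 (0.0705) or B6J replicate 2 (0.0562), and Pmvk, at an adjusted p of 0.0473, in 10 of its 13 alternatives. Without B6J.Gtpbp1-/- replicate 2 the count in that mutant was 6 of 14 rather than 10. In B6J-Gtpbp2-/- it was 1 without B6J replicate 1 or without B6J replicate 2, and 4 without B6J-Gtpbp2-/- replicate 1 or replicate 3.

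Of 7 genes that control SREBP processing, 2 were lower and 1 was higher in B6J.Gtpbp1-/-, and 1 was lower in B6J-Gtpbp2-/-, against 13.8% and 8.63% of all genes called. Srebf2 had 151, 151 and 128 CPM in B6J, 105, 106 and 103 CPM in B6J.Gtpbp1-/- and 107, 105 and 113 CPM in B6J-Gtpbp2-/-. Both mutants lay below B6J and were close to each other. Srebf2 fell by 0.45 (edgeR adjusted p = 0.0021) and by 0.40 (edgeR adjusted p = 0.0133). In B6J-Gtpbp2-/- this was lost without B6J-Gtpbp2-/- replicate 2 (0.0514), B6J replicate 1 (0.0796) or B6J replicate 2 (0.0696), from 0.00045 to 0.0796 over alternatives. Srebf1, the relative that favours fatty acid genes, went the other way, with 39.9, 40.7 and 34.8 CPM in B6J, 63.1, 45.0 and 52.5 CPM in B6J.Gtpbp1-/- and 52.9, 45.6 and 43.7 CPM in B6J-Gtpbp2-/-. Its change of 0.48 passed in B6J.Gtpbp1-/- (edgeR adjusted p = 0.0156, lost without B6J.Gtpbp1-/- replicate 1 at 0.0696 and with a length offset at 0.219) and its 0.30 in B6J-Gtpbp2-/- did not (edgeR adjusted p = 0.0934). Insig1, which holds SREBP back, had -0.26 in B6J.Gtpbp1-/- (edgeR adjusted p = 0.0491), lost without any 1 of its replicates 1, 2 and 3 (0.0824, 0.203 and 0.0951), B6J replicate 1 (0.198) or B6J replicate 2 (0.113). It was also lost with upper quartile scaling (0.108), a length offset (0.118), a replicate block (0.0989) and a term for Ddx3y (0.0971), which makes 9 of 13 alternatives. Medians over the 7 genes were -0.07 and -0.08.

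Of 13 genes for sterol uptake, transport and removal, 2 rose and 2 fell in B6J.Gtpbp1-/- and 1 rose and 2 fell in B6J-Gtpbp2-/-, with medians of 0.07 and 0.01. The other 9 and 10 were not called, and 13.8% and 8.63% of all genes were. Stard4, a carrier of cholesterol in the cytosol, had 65.7, 68.4 and 55.8 CPM in B6J, 25.6, 31.0 and 32.2 CPM in B6J.Gtpbp1-/- and 29.4, 33.2 and 37.0 CPM in B6J-Gtpbp2-/-. The mutants overlapped and lay below B6J. It fell by 1.10 (edgeR adjusted p = 2.15e-05) and by 0.93 (edgeR adjusted p = 0.000467). Abca1, the exporter of cholesterol, had 67.6, 81.0 and 59.0 CPM in B6J, 196, 141 and 187 CPM in B6J.Gtpbp1-/- and 166, 153 and 135 CPM in B6J-Gtpbp2-/-. Every mutant library was above every control, and Abca1 rose by 1.34 (edgeR adjusted p = 0.000377) and by 1.13 (edgeR adjusted p = 0.000251). Soat1, which esterifies cholesterol, rose by 0.38 in B6J.Gtpbp1-/- (edgeR adjusted p = 0.0216), a call lost without B6J.Gtpbp1-/- replicate 1 (0.0809), replicate 2 (0.0676) or B6J replicate 2 (0.0772) and with a length offset (0.0563).

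In fatty acid synthesis, a pathway under the same transcription factors, 6 of 10 genes were lower in each mutant, against 7.93% and 5.02% of all genes, with medians of -0.29 and -0.28. Scd1, a desaturase, had 229, 256 and 238 CPM in B6J, 147, 149 and 127 CPM in B6J.Gtpbp1-/- and 176, 149.9 and 192 CPM in B6J-Gtpbp2-/-. The control libraries were all higher than the mutants. Its changes were -0.77 (edgeR adjusted p = 4.25e-05) and -0.48 (edgeR adjusted p = 0.0101, without B6J replicate 2 0.0619). Acss2, which makes acetyl-CoA from acetate, had -0.68 (edgeR adjusted p = 8.26e-05) and -0.56 (edgeR adjusted p = 0.00162). Fads1 had -0.68 (edgeR adjusted p = 0.000309) and -0.47 (edgeR adjusted p = 0.0184, lost without B6J-Gtpbp2-/- replicate 2 at 0.0666, B6J replicate 1 at 0.102 or B6J replicate 2 at 0.0895). Acly, which makes acetyl-CoA from citrate, had -0.41 (edgeR adjusted p = 0.00507) and -0.34 (edgeR adjusted p = 0.038, lost without any single library but B6J replicate 3, and with upper quartile scaling at 0.0667, a length offset at 0.0839 and a term for Ddx3y at 0.0557). With 1 library left out, the count in B6J-Gtpbp2-/- ran from 1 of 10 (without B6J replicate 2) to 5 of 10 (without B6J replicate 3). In B6J.Gtpbp1-/- it ran from 4 (without its replicate 2 or 3 or B6J replicate 1 or 2) to 8 (without B6J replicate 3).

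On ribosomes, the enzymes were lower on average in both mutants as well, but replicates spread more widely than in RNA and few changes passed. In B6J.Gtpbp1-/- replicate 3 had the lowest footprints of Hmgcs1, Idi1, Fdft1, Sqle, Cyp51 and Dhcr7 in that group. In B6J-Gtpbp2-/- Sqle and Dhcr7 were called lower. Per kilobase of coding sequence in B6J, Hmgcs1 led with 338 ± 104 CPM, ahead of Cyp51 with 135 ± 23.5 CPM (SD, n = 3 each). Dhcr7 with 99.6 ± 17.5 CPM per kilobase and Sqle with 80.6 ± 4.15 CPM (SD, n = 3 each) overlapped. Fdft1, Mvd, Idi1 and Fdps came after them, but the places of Fdft1, Idi1 and Fdps are uncertain, since much of their coding sequence recurs elsewhere.

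Footprints of Hmgcs1 were 468, 404 and 711 CPM in B6J, 497, 437 and 207 CPM in B6J.Gtpbp1-/- and 493, 435 and 312 CPM in B6J-Gtpbp2-/-. B6J replicate 3 stood high, B6J.Gtpbp1-/- replicate 3 low, and the genotypes overlapped. Log2 changes of -0.47 (SE 0.308; edgeR adjusted p = 0.571) and -0.36 (SE 0.224; edgeR adjusted p = 0.447) did not pass. Mvd had 30.6, 46.9 and 55.1 CPM in B6J, 34.4, 32.4 and 32.4 CPM in B6J.Gtpbp1-/- and 30.6, 31.6 and 23.4 CPM in B6J-Gtpbp2-/-. Here B6J replicate 1 was as low as the mutants, and -0.42 (edgeR adjusted p = 0.486) and -0.66 (edgeR adjusted p = 0.152) did not pass.

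Idi1 had few counted footprints. Of its coding windows 86.1% recur elsewhere in the genome, as do 90.3% for Fdps, so low counts need not mean few ribosomes. Idi1 footprints were 15.0, 9.25 and 14.3 CPM in B6J, 12.7, 12.1 and 5.51 CPM in B6J.Gtpbp1-/- and 15.6, 11.8 and 5.41 CPM in B6J-Gtpbp2-/-. The genotypes overlapped, at -0.34 (edgeR adjusted p = 0.751) and -0.26 (edgeR adjusted p = 0.77). Fdps had so few that counts are given, 10, 1 and 20 in B6J, 8, 14 and 15 in B6J.Gtpbp1-/- and 5, 0 and 1 in B6J-Gtpbp2-/-. A log2 change of -0.15 in B6J.Gtpbp1-/- (edgeR adjusted p = 0.958) and of -2.60 in B6J-Gtpbp2-/- (SE 1.06; edgeR adjusted p = 0.221) did not pass, and the latter rests on a prior count and is no bound.

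Fdft1 footprints were 75.8, 76.2 and 85.6 CPM in B6J, 72.5, 53.5 and 38.9 CPM in B6J.Gtpbp1-/- and 50.8, 53.1 and 55.9 CPM in B6J-Gtpbp2-/-. All mutant libraries were below all controls, with changes of -0.53 (edgeR adjusted p = 0.354) and -0.58 (SE 0.161; edgeR adjusted p = 0.0685) that did not pass. By DESeq2 the change in B6J-Gtpbp2-/- did pass (adjusted p = 0.0422, over alternatives from 0.0422 to 0.5). Cyp51 had 187, 181 and 245 CPM in B6J, 206, 182 and 118 CPM in B6J.Gtpbp1-/- and 167, 142 and 133 CPM in B6J-Gtpbp2-/-. B6J.Gtpbp1-/- overlapped with B6J and B6J-Gtpbp2-/- did not, with changes of -0.27 (edgeR adjusted p = 0.67) and -0.48 (edgeR adjusted p = 0.147).

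Sqle footprints came to 134, 134 and 147 CPM in B6J, 116, 111 and 72.9 CPM in B6J.Gtpbp1-/- and 91.8, 92.6 and 73.4 CPM in B6J-Gtpbp2-/-. No mutant library overlapped with B6J. In B6J.Gtpbp1-/- -0.46 did not pass (edgeR adjusted p = 0.362), and in B6J-Gtpbp2-/- Sqle fell by 0.70 on the log2 scale (SE 0.159), or by 38.5% (edgeR adjusted p = 0.0277). That call was lost at -0.70 with all 9 footprint libraries in the model (0.0737) and at -0.64 with a term for Ddx3y added to these (0.282). It was also lost without B6J-Gtpbp2-/- replicate 1 (-0.75, 0.101), 2 (-0.75, 0.0736) or 3 (-0.59, 0.0996). The same held without B6J replicate 1 (-0.72, 0.076) or 2 (-0.72, 0.0609), in a range of adjusted p from 0.00511 to 0.282. Dhcr7 had 113, 154 and 157 CPM in B6J, 110.1, 101 and 91.6 CPM in B6J.Gtpbp1-/- and 67.6, 88.5 and 68.6 CPM in B6J-Gtpbp2-/-. The genotypes formed separate steps with narrow gaps. B6J replicate 1 lay just above B6J.Gtpbp1-/- replicate 1, and B6J.Gtpbp1-/- replicate 3 just above B6J-Gtpbp2-/- replicate 2. The change of -0.49 in B6J.Gtpbp1-/- did not pass (edgeR adjusted p = 0.294), and in B6J-Gtpbp2-/- Dhcr7 fell by 0.93 (SE 0.180), or by 47.7% (edgeR adjusted p = 0.00985). The latter was lost at -0.96 with a term for Ddx3y (0.086) and at -0.87 without B6J-Gtpbp2-/- replicate 1 (0.0923), in a range from 0.000374 to 0.0923.

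**Figure D3:**
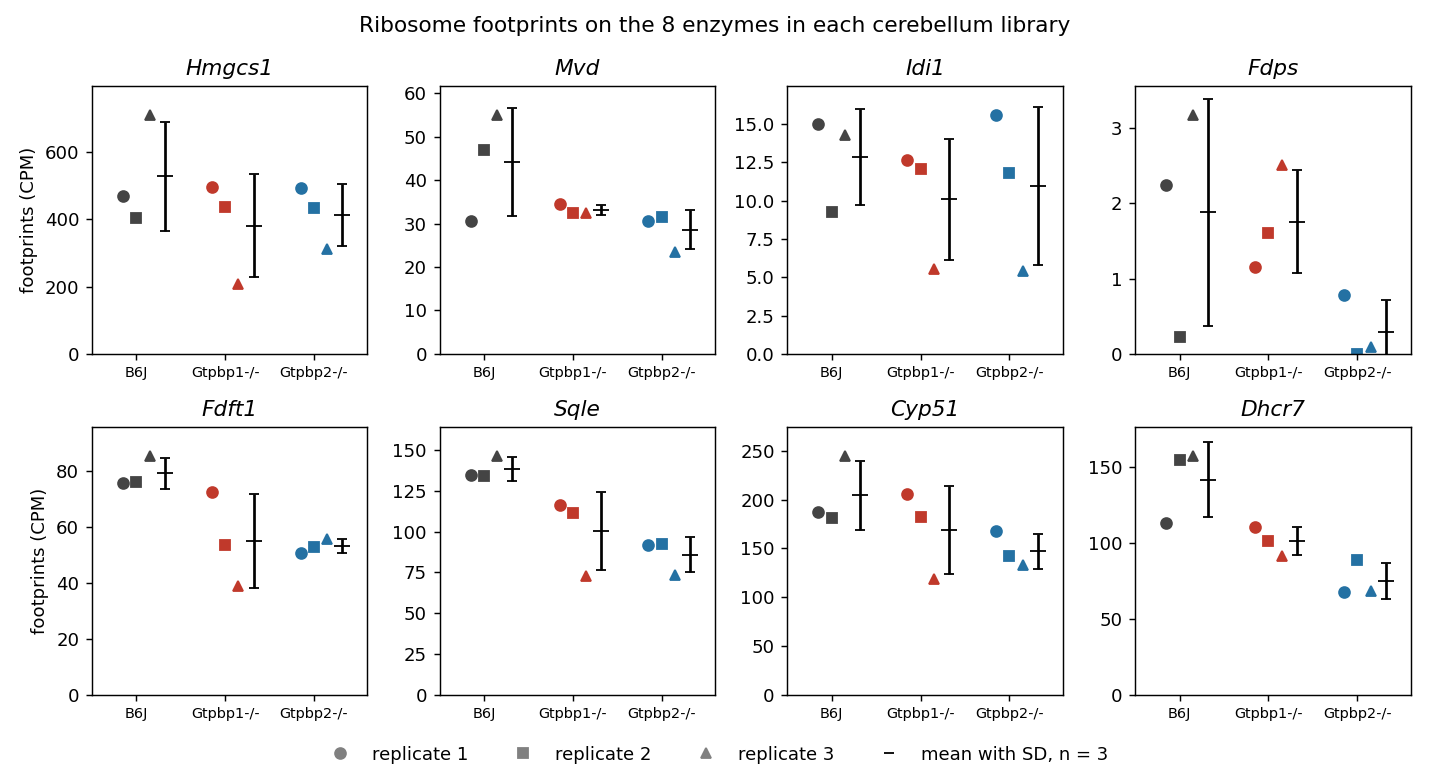
Footprints of the 8 enzymes in CPM, a panel for each, with a marker for every library (circle, square and triangle for replicates 1, 2 and 3) by genotype and the mean with SD (n = 3) in black. Dhcr7 steps down from 142 CPM in B6J to 101 CPM in B6J.Gtpbp1-/- and 74.9 CPM in B6J-Gtpbp2-/- on average, while the genotypes overlap for Hmgcs1, Mvd and Idi1.

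Counted over the enzymes, edgeR called 0 of 8 in footprints of B6J.Gtpbp1-/-, where 0.745% of 13956 genes were called and 0.172% were called lower. DESeq2 called 0, and 3 had an unadjusted p under 0.05, as had 1763 of all genes. All mutant libraries lay below all of B6J for 3 of 8 enzymes (Fdft1, Sqle and Dhcr7), against 8.79% of all genes. In B6J-Gtpbp2-/- 2 of 8 were called, both lower, against 2.94% of 13797 genes called and 1.67% called lower, and 4 of 8 (Fdft1, Sqle, Cyp51 and Dhcr7) did not overlap with B6J, against 11.6% of all genes. In the fit of 6 libraries 176 of the 406 genes called in B6J-Gtpbp2-/- were higher. All 9 footprint libraries in the model gave 1 of 8 enzymes and 268 genes, 117 of them higher. With a term for Ddx3y added to these 9, 0 of 8 enzymes and 45 genes were called, 34 of them higher. Median log2 changes of the enzymes were -0.44 and -0.62, beside 0.01 over all genes in each comparison. Between the mutants 0 of 8 were called by edgeR, against 0% of 14142 genes, DESeq2 called 0, and 2 enzymes and 1523 of all genes had an unadjusted p under 0.05. The enzymes were Dhcr7, higher in B6J.Gtpbp1-/- by 0.44 (edgeR adjusted p = 0.42), and Fdps, whose counts reach 0.

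Among the 14 other enzymes, footprints of 0 were called in B6J.Gtpbp1-/-, and Sc5d was called in B6J-Gtpbp2-/-, at -0.71 (edgeR adjusted p = 0.0447), a call lost without any single library except B6J replicate 3. It was lost too with upper quartile scaling (0.0513), all 9 footprint libraries in the model (0.0737), a replicate block (0.0537) and, at -0.57, a term for Ddx3y (0.345). Srebf2 footprints were 183, 226 and 196 CPM in B6J, 121, 126 and 184 CPM in B6J.Gtpbp1-/- and 108, 137 and 106 CPM in B6J-Gtpbp2-/-. They fell by 0.80 in B6J-Gtpbp2-/- (edgeR adjusted p = 0.0134), which was lost at -0.75 without B6J-Gtpbp2-/- replicate 1 (0.115), at -0.71 without B6J replicate 2 (0.0587) and at -0.91 with a term for Ddx3y (0.149), in a range from 0.000857 to 0.149.

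Translational efficiency, the footprints of a gene relative to its RNA, was tested as the interaction of assay and genotype over 12 libraries. In B6J.Gtpbp1-/- 7 of the 8 enzymes had a ratio above that in B6J, with a median log2 change of 0.41 beside 0.03 over all genes. The largest were Idi1 at 0.88 (edgeR adjusted p = 0.491), Fdps at 0.76 (edgeR adjusted p = 0.714), Cyp51 at 0.69 (edgeR adjusted p = 0.491) and Hmgcs1 at 0.57 (edgeR adjusted p = 0.687). Ratios of Idi1 and Fdps are uncertain, as 86.1% and 90.3% of their coding windows recur elsewhere in the genome. The median and the count of 7 include both. None passed: edgeR called 0 of 8, against 0% of 13086 genes, DESeq2 called 0, and 2 had an unadjusted p under 0.05, as had 1170 of all genes. Sqle, at 0.02, and Fdft1, at -0.03, changed sign when single libraries were left out. Cell type markers moved in this comparison too, though edgeR called 0 of them, and their part was not tested. Of 17 myelin and oligodendrocyte markers 0 were below 0, with a median of 0.48. Of 10 markers of astrocytes and Bergmann glia 1 was below 0, with a median of 0.32. Granule cell markers were mixed, with 5 of 10 below 0.

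In B6J-Gtpbp2-/- 7 of the enzymes had enough counts, Fdps being left out, and edgeR called 0 of 7, against 0.00773% of 12931 genes. DESeq2 called 0, and 1 enzyme and 1554 of all genes had an unadjusted p under 0.05. The enzyme was Sqle at -0.40 (unadjusted p = 0.0348; edgeR adjusted p = 0.378), with Dhcr7 next at -0.44 (unadjusted p = 0.0507; edgeR adjusted p = 0.417). Idi1 at 0.59, Hmgcs1 at 0.27 and Cyp51 at 0.25 were above 0, and the median was -0.11 beside 0.03 over all genes. The ratio of Idi1 is uncertain here too. Directly between the mutants, edgeR called 0 of 7, against 0% of 13292 genes, and DESeq2 called 0. There 1 enzyme had an unadjusted p under 0.05, Dhcr7 at 0.66 (unadjusted p = 0.00427; edgeR adjusted p = 0.284), beside 1483 of all genes. For B6J-Gtpbp2-/- against B6J, 10 of 10 granule cell markers were below 0, with a median of -0.51. Of 17 myelin and oligodendrocyte markers 3 were below 0, with a median of 0.15. EdgeR called 0 of these markers, and their part was not tested.

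Cell type markers were read beside these results. Markers of granule and Purkinje cells were abundant in all libraries, as the cerebellum label requires, and no marker of the 8 cell type lists was at 0. Their part in the changes of the enzymes was not tested. In RNA 13.8% and 8.63% of all genes were called in B6J.Gtpbp1-/- and B6J-Gtpbp2-/-, and 7.93% and 5.02% were called lower. Myelinating oligodendrocytes make much of the cholesterol of the young brain. Of 17 myelin and oligodendrocyte markers, 9 were lower in B6J.Gtpbp1-/- (5 without B6J replicate 1), with a median log2 change of -0.32, and 2 were lower in B6J-Gtpbp2-/- (0 without B6J-Gtpbp2-/- replicate 2 or B6J replicate 1), with a median of 0.02. Their summed RNA was 10476, 9108 and 10457 TPM in B6J, 8604, 8763 and 7501 TPM in B6J.Gtpbp1-/- and 12381, 9373 and 10312 TPM in B6J-Gtpbp2-/-, with Mbp the most abundant. Sums in B6J.Gtpbp1-/- were below all others, and sums in B6J-Gtpbp2-/- overlapped with B6J, whereas the enzymes' sums were below B6J in both mutants. The 2 called in B6J-Gtpbp2-/- were Ugt8a, with -0.73 (edgeR adjusted p = 0.00692) in B6J.Gtpbp1-/- and -0.45 (edgeR adjusted p = 0.0156) in B6J-Gtpbp2-/-, and Fa2h, with -0.59 (edgeR adjusted p = 0.000117) and -0.33 (edgeR adjusted p = 0.0148). In B6J-Gtpbp2-/- the call of Ugt8a was lost with all 9 RNA libraries in the model (0.0633), a term for Ddx3y (0.0938) and without B6J-Gtpbp2-/- replicate 2 (0.0517), B6J replicate 1 (0.0722) or B6J replicate 2 (0.0502). That of Fa2h was lost without B6J-Gtpbp2-/- replicate 2 (0.0572) or 3 (0.0673) or B6J replicate 1 (0.0778). Mobp, a myelin protein, had -0.59 (edgeR adjusted p = 0.000593) in B6J.Gtpbp1-/- and -0.01 (edgeR adjusted p = 0.973) in B6J-Gtpbp2-/-, which is 0.03 with upper quartile scaling. Directly between the mutants all 17 markers were below 0, with a median of -0.31, and edgeR called 0 of 17. Footprints did not repeat the RNA decrease in B6J.Gtpbp1-/-, where 4 of the 17 were below 0, with a median of 0.10. Summed footprints were 13857, 11776 and 17946 CPM in B6J, 17782, 15624 and 13701 CPM in B6J.Gtpbp1-/- and 16779.8, 18273 and 16125 CPM in B6J-Gtpbp2-/-.

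Granule cell markers were lower in both mutants, with medians of -0.38 and -0.42. In B6J.Gtpbp1-/- 7 of 10 were called lower (5 without its replicate 1 or 2 or B6J replicate 2). In B6J-Gtpbp2-/- 6 of 10 were (4 without B6J replicate 1). Summed RNA was 3843, 3943 and 3945 TPM in B6J, 2739, 2681 and 3124 TPM in B6J.Gtpbp1-/- and 2873, 3097 and 2658 TPM in B6J-Gtpbp2-/-, with Cbln1 the most abundant. No mutant sum reached a control sum. Gabra6, a receptor subunit of mature granule cells, had -1.08 (edgeR adjusted p = 1.6e-05) and -1.02 (edgeR adjusted p = 8.15e-05). In footprints of B6J-Gtpbp2-/-, where Sqle and Dhcr7 were called lower, 7 of the 10 were lower (4 without B6J-Gtpbp2-/- replicate 1 or 2) with a median of -0.98. Among all 13797 genes 1.67% were called lower. Summed footprints were 5055, 7316 and 5589 CPM in B6J against 3219.9, 3032 and 2777 CPM, with Fat2 the most abundant. In footprints of B6J.Gtpbp1-/- 9 of 10 were below 0, with a median of -0.57, and edgeR called 0. Sums there were 4276, 3267 and 4849 CPM, all below B6J. With all 9 footprint libraries and a term for Ddx3y, 4 edgeR calls in B6J-Gtpbp2-/- were lost. These were Gabra6 (adjusted p = 0.0958), Neurod1 (0.0558), Cbln1 (0.0927) and Cbln3 (0.203). Their changes were -1.04, -1.22, -1.26 and -1.12 in that fit. In the fit of 6 libraries without the term they were -1.30, -1.26, -1.28 and -1.17.

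Microglia markers went up, with medians of 0.80 and 0.77. Of 7, 5 were called higher in B6J.Gtpbp1-/- and 4 in B6J-Gtpbp2-/- (4 to 6 in each with 1 library left out). Among all genes 1449 of 24577 and 898 of 24859 were called higher. Their sum was 114, 109 and 129.6 TPM in B6J, 261, 229.6 and 235 TPM in B6J.Gtpbp1-/- and 221, 242 and 247 TPM in B6J-Gtpbp2-/-, and every mutant sum was above every control sum. C1qa, a complement protein, rose by 1.37 (edgeR adjusted p = 3.45e-06) and by 1.32 (edgeR adjusted p = 8.98e-05). Of 10 markers of astrocytes and Bergmann glia, 4 were lower and 1 higher in B6J.Gtpbp1-/-, the latter being Gfap at 1.35 (edgeR adjusted p = 3.04e-05) and at 1.22 in B6J-Gtpbp2-/- (edgeR adjusted p = 0.000104), where 4 were lower too. The lower calls numbered 1 without B6J.Gtpbp1-/- replicate 2 or B6J replicate 2 in B6J.Gtpbp1-/-, and 0 without B6J-Gtpbp2-/- replicate 3, B6J replicate 1 or B6J replicate 2 in B6J-Gtpbp2-/-. Their sum was 4149, 4276 and 3888 TPM in B6J, 4371, 3699.7 and 4109 TPM in B6J.Gtpbp1-/- and 3880.3, 4139 and 3663 TPM in B6J-Gtpbp2-/-, with Aldoc the most abundant and the genotypes overlapping.

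The other marker lists were mixed. Purkinje cell markers summed to 6126, 6416 and 5413 TPM in B6J, 6132, 5112 and 6607 TPM in B6J.Gtpbp1-/- and 5450.1, 5645 and 4673 TPM in B6J-Gtpbp2-/- (Pcp4 the most abundant). Of the 6, 2 were lower in B6J.Gtpbp1-/- (0 without its replicate 2) and 3 in B6J-Gtpbp2-/- (0 without its replicate 3, B6J replicate 1 or B6J replicate 2). Without B6J replicate 3 the count was 4 in each mutant. Footprints of all 6 were above 0 in both mutants, with medians of 0.11 and 0.40, and so was their translational efficiency, with medians of 0.37 and 0.73, and edgeR called 0 of 6 each time. Precursors of oligodendrocytes had sums of 42.6, 41.5 and 41.6 TPM in B6J, 48.0, 55.2 and 45.1 TPM in B6J.Gtpbp1-/- and 58.4, 56.0 and 53.6 TPM in B6J-Gtpbp2-/- (Gpr17 the most abundant). These sums were above B6J in every mutant library, and 1 of 4 markers was called, Cspg4, higher in B6J-Gtpbp2-/- by 0.71 (edgeR adjusted p = 0.0413), lost without any single library and with a length offset (0.0993). Markers of endothelium, choroid plexus and blood, with Hbb-bs the most abundant, had 1 of 7 higher in B6J.Gtpbp1-/-, Cldn5 at 0.59 (edgeR adjusted p = 0.0029), and 2 of 7 higher in B6J-Gtpbp2-/-, Cldn5 at 0.74 (edgeR adjusted p = 0.00275) and Pecam1 at 0.55 (edgeR adjusted p = 0.0366). The latter count was 1 without B6J-Gtpbp2-/- replicate 2 or 3 or any single B6J replicate, and the call of Pecam1 was lost too with a length offset (0.0907), a replicate block (0.0577) and a term for Ddx3y (0.062). The other 5 of the 7 lay below 0 in B6J-Gtpbp2-/-, so the list's median was -0.36 there and 0.42 in B6J.Gtpbp1-/-. Their sum was 7027, 4315 and 3264 TPM in B6J, 9083, 7433 and 6602 TPM in B6J.Gtpbp1-/- and 1153, 6766 and 4148 TPM in B6J-Gtpbp2-/-, with wide spread inside each genotype. In footprints all 7 were above 0 in both mutants, with medians of 1.01 and 1.06, and 1 was called in each, Cldn5 at 1.42 (edgeR adjusted p = 0.0209) and 1.41 (edgeR adjusted p = 0.00395). The former was lost without B6J.Gtpbp1-/- replicate 1 (0.083), B6J replicate 1 (0.156) or B6J replicate 2 (0.0891), and the latter with a term for Ddx3y (0.0695), at 1.35. Summed footprints were 6183, 4173 and 896 CPM in B6J, 15667, 983 and 13258 CPM in B6J.Gtpbp1-/- and 1420.3, 12159.9 and 10434 CPM in B6J-Gtpbp2-/-, with Ttr the most abundant and all genotypes overlapping. Of 6 bone and muscle markers edgeR called 0. Their RNA summed to 39.3, 37.6 and 23.9 TPM in B6J, 35.2, 52.5 and 38.7 TPM in B6J.Gtpbp1-/- and 27.4, 47.9 and 38.6 TPM in B6J-Gtpbp2-/-, with Col1a2 the most abundant. In footprints all 6 were above 0 in B6J.Gtpbp1-/-, with a median of 1.41, though none passed. Summed footprints were 274, 669.8 and 890.4 CPM in B6J, 1582, 1380.3 and 2652 CPM in B6J.Gtpbp1-/- and 605, 975 and 474 CPM in B6J-Gtpbp2-/-, with Col1a1 the most abundant. They were highest in B6J.Gtpbp1-/- replicate 3, the library with the lowest footprint sum of the 8 enzymes, and their part in the result was not tested.

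The 8 enzymes mostly rose and fell together from library to library, and pairs of other genes were not examined for this. Each gene's log2 CPM was put on a z scale over the 9 RNA libraries and averaged over the 8 genes. The mean z was 1.25, 1.20 and 1.14 in B6J, -1.06, -0.54 and -1.14 in B6J.Gtpbp1-/- and -0.64, -0.40 and 0.19 in B6J-Gtpbp2-/-. B6J.Gtpbp1-/- replicate 2 and B6J-Gtpbp2-/- replicate 3 stood nearest to the controls in their groups. Over the 28 pairs of enzymes, Pearson's r across the 9 libraries had a median of 0.955, from 0.883 for Mvd with Sqle to 0.994 for Idi1 with Cyp51. These values hold the difference between genotypes. With each genotype centred on its mean, the median was 0.685, from -0.003 for Mvd with Cyp51 to 0.953 for Hmgcs1 with Sqle, and 27 of 28 pairs were above 0.

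In footprints the mean z was 0.52, 0.42 and 1.39 in B6J, 0.42, 0.09 and -1.0 in B6J.Gtpbp1-/- and -0.23, -0.46 and -1.16 in B6J-Gtpbp2-/-. B6J replicate 3 was the highest library, and replicate 3 of each mutant was among the lowest. The median r over pairs of enzymes was 0.681, from 0.128 for Fdps with Fdft1 to 0.909 for Sqle with Cyp51 (n = 9 libraries), and 0.429 once each genotype was centred, with 24 of 28 pairs above 0.

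Across the 9 RNA libraries the genes outside the lists of pathway enzymes whose log2 CPM followed the enzymes' mean z most closely were led by Hnrnpa1, an RNA-binding protein (Pearson's r 0.998, Spearman's rho 0.983, n = 9). Others were mt-Cytb (0.991), mt-Nd1 (0.985), Tubb4a (0.982), Zmat2 (0.980), Fads1 (0.976), Trp53inp2 (0.976), Car4 (0.976), Reep5 (0.974) and Zcchc17 (0.973), given as Pearson's r over the same libraries. In the 9 footprint libraries, where the same r was computed afresh, Hnrnpa1 had 0.845 (rho 0.817), Tubb4a 0.859 (rho 0.900) and Car4 0.849, whereas Reep5 had 0.088, Trp53inp2 0.090 and mt-Cytb 0.238. These r values describe libraries that fall into genotypes and share the depth of each library.

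Promoters are shown because all 8 genes had less RNA in both mutants. SREBP is known to act on promoters of the pathway with the CCAAT-binding factor NF-Y. RefSeq promoters on GRCm38.p6 matched 5 of the 8 genes, and Fdps, Fdft1 and Sqle are named only. The 250 bases before the start were searched on both strands for TCACNCCAC, a form of the sterol regulatory element, for CCAAT and for GGGCGG, a GC box. Hmgcs1 held 1 match to TCACNCCAC, at position -137 from the start, 3 to CCAAT and 2 to GGGCGG. Mvd held 0, 2 and 1, Idi1 held 0, 2 and 1, and Cyp51 held 0, 1 and 1. The Idi1 entry starts 105 bases inside the main transcript, and all 250 bases of its window lie in annotated exons, as do 49 for Cyp51. Of 3 entries for Dhcr7 none matched TCACNCCAC, and they held 0, 0 and 2 matches to CCAAT and 1, 0 and 3 to GGGCGG. The 3 entries start 6459, 6227 and 588 bases from the start of the main transcript, with 22, 250 and 250 bases in exons. Among 32851 promoters of the same length, 1.05% held TCACNCCAC, 33.8% held CCAAT and 32.7% held GGGCGG. A match describes letters in the window only. The sequences of Hmgcs1 (chr13:119690101-119690350, + strand) and Mvd (chr8:122443423-122443672, − strand) follow 5′ to 3′, with matches to TCACNCCAC and CCAAT in capitals, where ATTGG is CCAAT on the other strand.
Hmgcs1: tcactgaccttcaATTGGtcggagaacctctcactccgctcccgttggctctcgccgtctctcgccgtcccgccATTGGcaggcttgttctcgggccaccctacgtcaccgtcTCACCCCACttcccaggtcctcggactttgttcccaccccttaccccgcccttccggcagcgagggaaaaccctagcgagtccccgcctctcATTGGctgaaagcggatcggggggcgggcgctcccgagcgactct
Mvd: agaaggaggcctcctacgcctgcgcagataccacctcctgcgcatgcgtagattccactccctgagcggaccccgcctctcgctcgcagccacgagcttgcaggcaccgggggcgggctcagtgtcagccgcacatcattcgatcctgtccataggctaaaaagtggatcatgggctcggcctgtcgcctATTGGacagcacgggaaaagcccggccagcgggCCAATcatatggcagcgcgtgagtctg

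Codon use was read because n-Tr20 decodes AGA. Per 1000 codons of the main transcript, AGA came to 17.3 in Hmgcs1, 4.99 in Mvd, 21.2 in Idi1, 5.67 in Fdps, 7.21 in Fdft1, 15.7 in Sqle, 13.9 in Cyp51 and 2.12 in Dhcr7. The median of the 8 was 10.6, beside 10.4 over 16354 genes with quartiles of 5.38 and 16.9, so the enzymes spread over the usual range. Dhcr7, with 1 AGA in 471 codons, and Sqle, with 9 in 572, were the enzymes called lower in footprints of B6J-Gtpbp2-/-, where all 8 were below 0. A link between AGA and footprints was not tested.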

How the data were processed

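RNA-seq and ribosome profiling of 9 cerebella each were used. For RNA, the authors ran kallisto 0.42.4 on the Gencode M20 transcripts and deposited estimated counts and TPM per transcript, where TPM is normalized for length and library total. For footprints, the authors removed ribosomal RNA with Bowtie2 2.2.3, mapped reads to mm10 with HISAT2 2.1.0 and deposited featureCounts counts on coding sequence, not normalized. Estimated counts and TPM were summed per gene, and estimated counts rounded.

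Genes that reached 5 counts in 3 or more of 6 libraries were tested by edgeR 4.0.16 (quasi-likelihood, robust, TMM) in R 4.3.3 with Benjamini-Hochberg adjustment over all genes tested. Translational efficiency used 12 libraries and a minimum of 10 counts in 3 of the 6 libraries of each assay, without genes prefixed Hist. Alternatives were DESeq2 1.42.0, upper quartile scaling, no filter, a length offset, all 9 libraries, a replicate block, and each library left out. A term for Ddx3y was always added to the model of all 9 libraries, so that setting differs from the main fit in 2 choices. Scripts were tested on simulated data. Python 3.11.15, pandas 2.3.3, numpy 2.4.6, scipy 1.17.1 and matplotlib 3.10.9 made the summaries and plots.

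The members and lists were chosen with earlier results of these data known. Named genes are all 8 enzymes, the other enzymes and SREBP control genes, Gtpbp1 and Gtpbp2, up to 4 called genes with the smallest adjusted p in RNA of each further list, and the 10 genes closest to the enzymes' mean z (log2 of CPM + 0.5). Some genes of these lists are counted but not reported here.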

Additional observations from a re-analysis of the deposited data

How the results depend on the processing

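In RNA of B6J.Gtpbp1-/- all 8 enzymes kept their direction and their call in each of the 13 alternatives. In B6J-Gtpbp2-/- all kept their direction, the number called ran from 5 to 8 over other settings, and the calls of Mvd, Fdft1, Sqle and Dhcr7 depended on the setting or on 1 library. In footprints of B6J-Gtpbp2-/- the calls of Sqle and Dhcr7 did so too. The footprint fit of all 9 libraries with a term for the Y-linked gene Ddx3y was added after seeing the data. No B6J-Gtpbp2-/- library has many Ddx3y counts, so in that comparison sex and genotype can be told apart only through the other genotypes. Footprint libraries are shallow, and few counts limit Idi1 and Fdps, whose coding windows mostly recur elsewhere in the genome. Except where fewer libraries or a wider or narrower set of tested genes makes the change, the cause was not tested.

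Counts of genes called by edgeR moved by over 1.5 times as follows. By DESeq2 they were 3409 in RNA of B6J-Gtpbp2-/- (2146 by edgeR), 46 in RNA between the mutants (15), 406 in footprints of B6J.Gtpbp1-/- (104), 655 in footprints of B6J-Gtpbp2-/- (406), 100 in footprints between the mutants (0), and in translational efficiency 58 in B6J.Gtpbp1-/- (0), 160 in B6J-Gtpbp2-/- (1) and 155 between the mutants (0). An offset for transcript length gave 2231 in RNA of B6J.Gtpbp1-/- (3398) and 1360 in RNA of B6J-Gtpbp2-/-. Without a filter on low counts they were 36 in RNA between the mutants, 213 in footprints of B6J.Gtpbp1-/-, 15 in footprints between the mutants and 2 in translational efficiency of B6J-Gtpbp2-/-. All 9 footprint libraries in the model gave 202 in B6J.Gtpbp1-/-, 268 in B6J-Gtpbp2-/- with 1 of the 8 enzymes, and 1 between the mutants. Upper quartile scaling gave 3 in footprints between the mutants. All 9 libraries with a term for Ddx3y gave 7 in RNA between the mutants, where all 9 without it gave 16. In footprints of B6J-Gtpbp2-/- they gave 45 with 0 of the 8 enzymes.

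The share of calls that were higher moved as well. With upper quartile scaling it went from 42.6% to 54.9% in RNA of B6J.Gtpbp1-/- and from 41.8% to 53.3% in RNA of B6J-Gtpbp2-/-. By DESeq2, which differs in scaling, dispersion and test at once, it went from 76.9% to 61.8% in footprints of B6J.Gtpbp1-/- and from 26.7% to 45.7% in RNA between the mutants. In footprints of B6J-Gtpbp2-/- it was 43.3%, then 43.7% with all 9 libraries and 75.6% with a term for Ddx3y added to these. In RNA between the mutants all 9 libraries gave 25% and the added term 14.3%. Without B6J replicate 3 the share went from 76.9% to 47.8% in footprints of B6J.Gtpbp1-/-, where 186 genes were then called. No setting moved the median of all genes by over 0.1 on the log2 scale.

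With 1 library left out in turn, counts of genes called lay between 1890 and 3798 in RNA of B6J.Gtpbp1-/-, 953 and 2357 in RNA of B6J-Gtpbp2-/- with 4 to 7 enzymes, and 9 and 17 in RNA between the mutants. In footprints they lay between 22 and 186 in B6J.Gtpbp1-/-, 106 and 619 in B6J-Gtpbp2-/- with 0 to 2 enzymes, and 0 and 33 between the mutants. In translational efficiency they lay between 0 and 174 in B6J.Gtpbp1-/-, 0 and 158 in B6J-Gtpbp2-/- (3 without B6J replicate 3 in RNA or B6J-Gtpbp2-/- replicate 2 in footprints, and 6 without B6J-Gtpbp2-/- replicate 3 in footprints) and 0 and 177 between the mutants, where 0 of the enzymes were called by edgeR under any of the 16 alternatives.

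Log2 changes that turned their sign were all uncalled. By setting, Insig2 in RNA of B6J.Gtpbp1-/- went to 0.0017 and Mobp in RNA of B6J-Gtpbp2-/- to 0.033 with upper quartile scaling. With a length offset Mbtps1 in RNA of B6J.Gtpbp1-/- went to 0.051, Gtpbp2 in RNA of B6J-Gtpbp2-/- to 0.32 and Scap to 0.0051. With a term for Ddx3y Fdft1 in footprints between the mutants went to -0.052. With 1 library left out, RNA values ran from -0.096 to 0.0028 for Insig2 in B6J.Gtpbp1-/-, and in B6J-Gtpbp2-/- from -0.17 to 0.0090 for Lbr, -0.11 to 0.096 for Mobp, -0.060 to 0.13 for Cldn11 and -0.12 to 0.16 for Col1a2. Footprint values ran from -0.65 to 0.50 for Fdps in B6J.Gtpbp1-/- and -0.65 to 0.098 for Idi1 in B6J-Gtpbp2-/-, and between the mutants from -0.35 to 0.18 for Hmgcs1, -0.45 to 0.30 for Idi1 and -0.19 to 0.24 for Fdft1. Translational efficiency ran from -0.29 to 0.13 for Fdft1 and -0.12 to 0.16 for Sqle in B6J.Gtpbp1-/-, -0.36 to 0.043 for Mvd in B6J-Gtpbp2-/-, and between the mutants from -0.12 to 0.73 for Idi1 and -0.060 to 0.36 for Fdft1. In B6J.Gtpbp1-/- Fdft1 turned positive without B6J.Gtpbp1-/- replicate 2 in RNA (0.029), B6J replicate 3 in RNA (0.017) and B6J.Gtpbp1-/- replicate 3 in footprints. Sqle turned negative without B6J.Gtpbp1-/- replicate 1 or 3 in RNA (-0.013 and -0.020), B6J replicate 1 or 3 in RNA (-0.0026 and -0.035), B6J.Gtpbp1-/- replicate 1 or 2 in footprints (-0.12 and -0.10) and B6J replicate 1 or 2 in footprints (-0.041 and -0.033). From protein-coding transcripts alone, levels in B6J were 80.9 TPM for Fdps and 25.1 TPM for Dhcr7.

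Replicate numbers showed no clear pairing of the samples. Correlations of same-numbered deviations ran from -0.11 to 0.19 in RNA, where the own number gave the best r in 2 of 9 comparisons. They ran from -0.28 to 0.11 in footprints and from -0.12 to 0.14 between RNA and footprints, with 4 of 9 each. With 3 libraries in a genotype, this check cannot tell whether a number marks a shared litter or batch. With the replicate block edgeR called 2237 genes in RNA of B6J.Gtpbp1-/-, 2130 in RNA of B6J-Gtpbp2-/-, 15 in RNA between the mutants, 44 in footprints of B6J.Gtpbp1-/- (90.9% higher), 510 in footprints of B6J-Gtpbp2-/- and 1 in footprints between the mutants. In translational efficiency the block called 0 in each comparison. Under the block Fdft1 was not called and Sqle was called in RNA of B6J-Gtpbp2-/- (edgeR adjusted p = 0.0591 and 0.0443), Fdps in footprints of B6J.Gtpbp1-/- had 0.12 and Sqle in translational efficiency of B6J.Gtpbp1-/- had -0.0097, and it changed no other call of the 8 enzymes.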
